A study of Mus musculus with 6 samples.

Results

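The livers of vehicle mice at 21 days of age were described on their own, as a record of what the liver of an unexposed mouse transcribes at weaning. They form 3 of the 6 RNA samples of a study of triclosan (TCS) passed to pups in milk, and no TCS sample entered any value given here. The vehicle mice were C57/B6 pups that stayed with their parents until the livers were taken, and the parents ate chow mixed with the vehicle, dimethyl sulfoxide in water, so that the sample labels describe the milk as regular. Each sample was RNA pooled from 3 mice, which makes 9 mice in all, and the methods state that only males were used and that at least 2 litters contributed. A pool averages its mice, so differences between single animals cannot be seen, and the litters behind each pool are not given in the sources used here. Abundance was given as TPM, a measure of transcript number in which reads are divided by the length of the transcript and scaled so that every pool has the same total, and levels can therefore be set side by side between genes. All genes with a mean of at least 1 TPM over the 3 pools were taken, and these were 13196 of the 51912 genes listed, or 25.4%. A further 116 genes lay between 0.95 and 1 TPM, and 116 of those taken lay less than 0.05 TPM above the limit. Of the genes taken, 12119 reached 1 TPM in every pool, and together they held 99.7% of all TPM.

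The liver makes most of the proteins of blood plasma, and hepatocytes, the parenchymal cells that do so, make up most of its mass. Hepatocytes also turn ammonia into urea, store and release glucose, burn and build fat, make bile acids and oxidise foreign chemicals with cytochromes P450. These tasks are divided along the lobule, the unit of liver tissue, in which blood flows from the portal vein to the central vein: urea synthesis and glucose production are strongest near the portal vein, and glutamine synthesis and P450 oxidation near the central vein. Before birth the liver is a site of blood formation and expresses fetal genes such as Afp, and in mice these programmes fade over the weeks after birth while drug-oxidising and sex-specific genes rise.

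The sequence next to the start sites was read for genes on which the account turns. Alb, Serpina1a, Fgb and Gc encode albumin, a form of α1-antitrypsin, the fibrinogen β chain and the vitamin D carrier, which are all secreted into plasma. Afp encodes the fetal plasma protein that precedes albumin, and Glul encodes glutamine synthetase of hepatocytes around the central vein. The promoters were taken from RefSeq (GRCm38.p6) and are printed 5′ to 3′ on the strand of the gene, as the 200 bases that end just before the annotated start site. Capitals mark TATAAA (the TATA box), GTTAAT (a motif known from promoters of liver genes) and CCAAT, or their reverse complements, and these genes were chosen after their matches were seen.
Alb, chr5:90460670-90460869, plus strand: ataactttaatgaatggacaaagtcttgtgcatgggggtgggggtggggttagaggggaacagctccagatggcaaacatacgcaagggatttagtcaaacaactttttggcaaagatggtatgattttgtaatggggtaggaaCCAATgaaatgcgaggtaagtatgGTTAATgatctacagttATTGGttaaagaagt
Serpina1a, chr12:103863620-103863819, minus strand: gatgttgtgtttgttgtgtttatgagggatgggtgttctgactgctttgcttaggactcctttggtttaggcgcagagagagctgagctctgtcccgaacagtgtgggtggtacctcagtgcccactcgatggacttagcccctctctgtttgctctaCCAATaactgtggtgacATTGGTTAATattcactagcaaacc
Fgb, chr3:83049864-83050063, minus strand: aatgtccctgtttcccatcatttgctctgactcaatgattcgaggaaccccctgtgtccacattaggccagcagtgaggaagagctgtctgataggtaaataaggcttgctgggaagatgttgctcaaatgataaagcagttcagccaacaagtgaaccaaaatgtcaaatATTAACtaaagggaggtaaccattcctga
Gc, chr5:89457899-89458098, minus strand: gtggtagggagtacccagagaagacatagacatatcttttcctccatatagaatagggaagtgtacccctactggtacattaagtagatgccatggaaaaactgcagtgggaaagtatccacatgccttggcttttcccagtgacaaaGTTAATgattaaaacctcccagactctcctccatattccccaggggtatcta
Afp, chr5:90490514-90490713, plus strand: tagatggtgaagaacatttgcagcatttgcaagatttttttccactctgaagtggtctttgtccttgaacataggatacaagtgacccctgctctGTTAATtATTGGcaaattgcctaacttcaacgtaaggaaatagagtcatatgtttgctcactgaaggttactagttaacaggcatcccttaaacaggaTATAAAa
Glul, chr1:153899729-153899928, plus strand: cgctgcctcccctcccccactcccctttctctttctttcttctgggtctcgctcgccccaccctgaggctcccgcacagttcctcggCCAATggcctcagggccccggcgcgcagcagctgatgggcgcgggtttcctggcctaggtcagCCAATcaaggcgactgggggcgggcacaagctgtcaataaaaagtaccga

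GTTAAT began 32 bases before the start site in Alb, 21 in Serpina1a, 29 in Fgb (as its reverse complement), 52 in Gc and 105 in Afp, and Glul held none in the stretch shown. These distances hold for the RefSeq start sites only. In GENCODE the gene begins further downstream for Alb (90460897), Afp (90490737) and Serpina1a (103863562), while Fgb begins next to its stretch (83049863). In Serpina1a the match shares 1 base with a reversed CCAAT. Over the 11746 windows of 300 bases (250 before and 50 after a start site) that matched protein-coding nuclear genes with at least 1 TPM, 4.83% held GTTAAT on either strand, 7.87% held TATAAA and 37.8% held CCAAT. Windows were found for 9176 of these 11452 symbols, or 80.1%. In the 854 windows of genes from 100 to under 1000 TPM the shares were 8.20%, 12.9% and 44.3%, with windows for 666 of 821 genes. Among all 32851 mouse windows they were 7.10%, 13.6% and 37.4%. For the 100 most abundant genes only 74 had a window, under the 80% needed, so a comparison of that group is void. A match of letters is a description and not evidence of binding.

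Before the values, some features in which the pools stood apart need to be given. Pool 1 held skeletal muscle transcripts: the 6 listed muscle genes summed to 281 TPM in pool 1, 9.06 in pool 2 and 46.5 in pool 3, and all 6 passed 1 TPM. Pool 3 held the most pancreatic acinar transcripts, the 14 listed genes summing to 346.1, 144.1 and 1036.2 TPM in pools 1 to 3, and all 14 passed 1 TPM. Xist, the transcript of the inactive X chromosome in females, was at 46.4, 1.8 and 88.3 TPM, while the 4 listed Y-linked genes Eif2s3y, Ddx3y, Uty and Kdm5d summed to 65.8, 97.4 and 38.1 TPM. Y-linked RNA was thus present in every pool, and Xist was high in pools 1 and 3, which goes against the statement that only males were used. Among 5970 genes with at least 10 TPM, 18 genes in pool 1, 38 in pool 2 and 33 in pool 3 were at least 2-fold above both other pools, which are 0.302%, 0.637% and 0.553%. The genes at least 2-fold below both other pools numbered 11, 78 and 19, which are 0.184%, 1.31% and 0.318%. The 78 of pool 2 include 4 genes of the muscle list and 13 of the acinar list. Across the 13196 genes, Pearson's r of log2(TPM + 1) was 0.962 between pools 1 and 2, 0.968 between pools 1 and 3 and 0.957 between pools 2 and 3, a description over genes, which are not independent replicates. The read depth behind the TPM values is not known, which leaves counting error out, and every error given is the SD over the 3 pools (n = 3).

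A small set of genes made up most of the transcriptome. Alb alone held 10.2% ± 0.572 of all TPM, the 10 most abundant genes 27.8% ± 0.325 and the 100 most abundant 57.8% ± 0.738. The most abundant 48 genes held 50% of TPM and 2380 genes held 90%. The median of the 13196 genes was 8.42 TPM, while 972 genes reached 100 TPM and 104 reached 1000 TPM. Protein-coding genes numbered 11466 and held 92.9% of TPM.

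**Figure D1:**
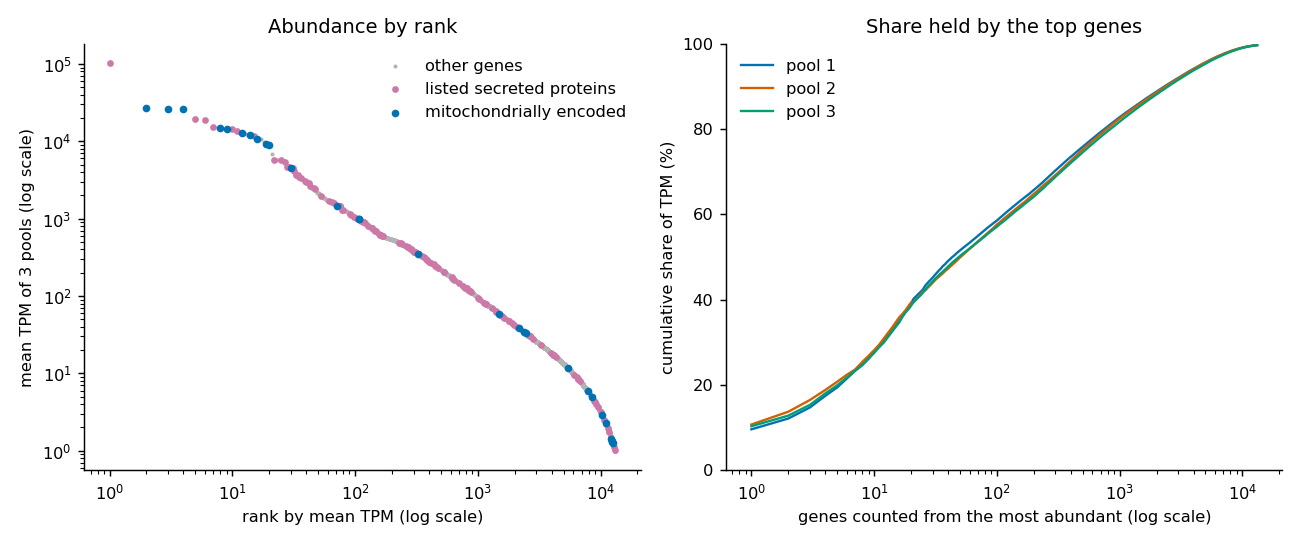
Left, mean TPM of the 3 vehicle pools against rank, both on log scales, with each gene of at least 1 TPM as a point coloured by class. Right, cumulative share of TPM in percent against the number of genes counted from the most abundant (log scale), a line per pool; the 3 lines lie close together and pass 50% near 48 genes.

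The 30 genes with the highest mean were 12 secreted plasma proteins, 11 mitochondrially encoded genes and 7 others. Alb reached 95700, 107000 and 103000 TPM in pools 1 to 3, with a mean of 101900 ± 5730. Apoe, which carries lipoproteins to their receptors, was the next nuclear gene at 19800, 19300 and 19000 TPM, so that Alb stood 5.27 ± 0.380 times above it. Ahsg, the plasma protein fetuin-A that binds calcium phosphate, followed at 20900, 16500 and 18400 TPM, and its range spanned the values of Apoe. Trf, the iron carrier transferrin, was at 18100, 12100 and 15900 TPM, lowest in pool 2. Apoa1, the main protein of high-density lipoprotein, was at 15600, 13400 and 13800 TPM, and Apoc1 at 14700, 13100 and 13300 TPM. Apoa1 was above Apoc1 in every pool, while Trf was above both in pools 1 and 3 and below both in pool 2. Apoa2 was at 11600, 12200 and 11500 TPM. The most abundant nuclear gene whose protein stays inside the hepatocyte was Fabp1, the fatty acid carrier of its cytosol, at 9800, 8040 and 13900 TPM, highest in pool 3. Cyp2e1, a P450 that oxidises ethanol and acetone, was at 4820, 7110 and 5100 TPM, highest in pool 2. Selenop, which carries selenium to other organs, was at 5510, 6420 and 5480 TPM.

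The liver's secreted proteins were listed as 154 genes, of which 145 reached 1 TPM, and they held 30.4% ± 0.706 of all TPM and 39.9% ± 1.3 of the TPM of protein-coding nuclear genes. Without Alb in either sum their share was 22.5%. Of the 100 most abundant genes 35 were on these lists. The 14 carriers summed to 148153 ± 1665 TPM, the 17 genes of apolipoproteins and related lipoprotein factors to 70886 ± 2755 and the 23 protease inhibitors to 51931 ± 3489. The 20 coagulation genes summed to 18099 ± 1454, the 25 complement genes to 7842 ± 539 and the 14 acute phase genes to 3369 ± 836. Among carriers after Alb and Trf, Ttr (thyroid hormone and retinol transport) was at 5560, 5270 and 5600 TPM, Gc at 4450, 4610 and 4720 TPM and Rbp4 (retinol transport) at 4250, 4550 and 3760 TPM.

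**Figure D2:**
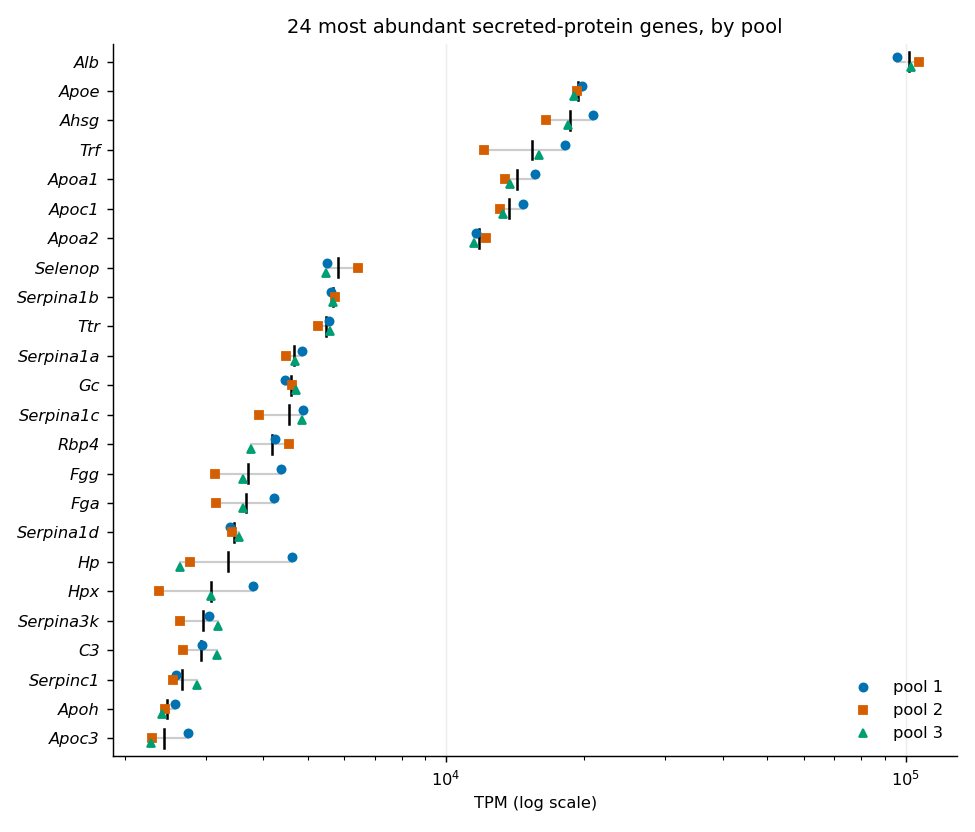
TPM (log scale) of the 24 most abundant genes on the secreted-protein lists, with a symbol per vehicle pool and a black bar at the mean; Alb stands alone on the right, and Trf, Hp and Hpx show the widest gaps between pools.

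Protease inhibitors of plasma are represented in the mouse by families of near-identical genes. Serpina1a to Serpina1e, which encode forms of α1-antitrypsin and lie together on chromosome 12, summed to 18703 ± 908 TPM, or 1.87% of TPM. Serpina1b was at 5630, 5730 and 5660 TPM and Serpina1a at 4850, 4480 and 4680 TPM. Serpina1e was at 473, 115 and 510 TPM, with pool 2 far below the others. Reads of such copies can be split between them, and single members are less certain than the sum, which was 19203, 17655 and 19250 TPM. Serpinc1, or antithrombin, was at 2580, 2550 and 2870 TPM, and Serpinf2 (α2-antiplasmin) was at 630, 627 and 630 TPM.

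Clotting factors varied little between pools, with a median coefficient of variation (CV, the SD as a percentage of the mean) of 5.41% over 20 genes, beside 8.09% for all 868 genes from 100 to under 1000 TPM. Fibrinogen, the precursor of fibrin, led with Fgg at 4380, 3140 and 3610 TPM and Fga at 4230, 3160 and 3610 TPM. Fgb was lower at 1840, 1370 and 1530 TPM. The ratio of Fgb to Fga was 0.431 ± 0.00607 and that of Fgg to Fga 1.01 ± 0.0225, so that the chains kept nearly fixed proportions while the level of each differed between pools. The fibrinogen genes lie within 6513 to 11026 bases of their neighbours on chromosome 3. Kng1 (kininogen) was at 1660, 1700 and 1760 TPM, Vtn (vitronectin) at 1720, 1510 and 1640 TPM and Plg (plasminogen) at 1500, 1410 and 1450 TPM. F2, or prothrombin, was at 1310, 1280 and 1310 TPM, and the vitamin K-dependent factors F10, F9 and F7 stood lower with means of 328 ± 19.6, 126 ± 4.04 and 78.1 ± 3.48 TPM.

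Complement, the plasma cascade that opsonises and lyses microbes, was led by C3 at 2940, 2670 and 3170 TPM. Cfb, its alternative pathway partner, was at 842, 776 and 821 TPM, and Mbl2, a mannose-binding lectin, at 577, 604 and 684 TPM. Cfi, which restrains C3, had a mean of 484 ± 35.9 TPM. C4b had a mean of 357 ± 71.9 TPM. Terminal components were graded: Hc (C5) at 317 ± 42.7, C8a at 148 ± 11, C9 at 27.9 ± 7.46 and C6 at 8.56 ± 0.953 TPM. C7 was under the limit at 0.528 TPM, the only one of 25 complement genes to fall there. C1qa, C1qb and C1qc, which macrophages make, were near-equal at 55.6 ± 5.36, 62.4 ± 3.58 and 52.8 ± 4.05 TPM.

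Acute phase genes, which the liver raises in inflammation, varied more. Their median CV was 42.2% over 14 genes, and 11 of the 14 were highest in pool 1, the pool highest for 21.0% of all 13196 genes. Saa1 was at 156, 56.3 and 65.4 TPM and Lcn2, which binds bacterial siderophores, at 131, 35.9 and 24.3 TPM. Pool 1 was above both others for both genes. Fgl1 was at 1290, 645 and 797 TPM, and Apcs, serum amyloid P, at 560, 257 and 395 TPM. Crp, which responds little to inflammation in mice, was at 392, 338 and 371 TPM. Orm1, an acidic glycoprotein of plasma, was at 193, 66.7 and 263 TPM, lowest in pool 2. Hp, which binds free haemoglobin, was at 4630, 2770 and 2640 TPM, and Hpx, which binds haem, at 3800, 2370 and 3080 TPM. Muscle transcripts were also highest in pool 1, and their part in these values was not tested.

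Hormones and growth factor binding proteins were expressed at widely different levels. Igf1, the growth factor that growth hormone induces in liver, was at 464, 407 and 550 TPM. Its carriers Igfbp4, Igfbp1 and Igfbp2 had means of 927 ± 53.0, 692 ± 226 and 604 ± 90.2 TPM, and Igfbp1, an insulin-repressed gene, was highest in pool 1 at 946, 617 and 513 TPM. Igfals, which stabilises IGF1 in plasma, was at 45.7, 34.5 and 61.0 TPM. Agt, the angiotensin precursor, was at 682, 576 and 519 TPM. Fgf21 and Gdf15, hormones of fasting and stress, were near the limit at 1.32 ± 0.305 and 1.97 ± 0.361 TPM, and Epo, which drives red cell formation and is made in kidney after birth, was below it at 0.201 TPM.

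Mitochondrially encoded genes held 17.1% ± 0.846 of TPM. The 13 messengers summed to 169400, 176095 and 159557 TPM, lowest in pool 3. mt-Co1 was at 25400, 30100 and 24900 TPM, mt-Atp6 at 26000, 27500 and 25300 TPM and mt-Atp8 at 27200, 23500 and 26900 TPM, and the order of these leading messengers was within their spread. mt-Cytb and mt-Nd4l, subunits of complex III and complex I, were steadier at 15200, 14300 and 14400 TPM and at 12300, 12200 and 12000 TPM. mt-Nd6, which is read from the opposite strand to the others, was the lowest messenger at 350 ± 39.6 TPM. The mitochondrial ribosomal RNAs mt-Rnr1 and mt-Rnr2 were at 1473 ± 127 and 991 ± 116 TPM.

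Some nuclear entries in the top 30 carry mitochondrial sequence. Gm28437, Gm28661, Gm29216 and Gm28438 are unprocessed pseudogenes in a row on the minus strand of chromosome 1 (GRCm38, from 24612775 to 24616197), and their GENCODE transcripts match mt-Co3, mt-Co2, mt-Co1 and mt-Nd3 over their full lengths. Gm28437 and Gm28661 were identical to the mitochondrial gene over 783 and 681 bases, Gm28438 differed at 1 of 345 bases and Gm29216 at 6 of 492. They held 3.48% of TPM, with Gm28437 at 10800, 13200 and 13300 TPM and Gm29216 at 10700, 835 and 8820 TPM. Reads that fit both copies cannot be told apart, so the levels of these pseudogenes and of their mitochondrial partners are uncertain. Counted with them, mitochondrial sequence held 20.6% of TPM, and this sum had a CV of 2.95%.

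Mir6236, at 8020, 1760 and 7030 TPM, led the other noncoding entries. The further entries named here were processed pseudogenes, except ENSMUSG00000098178, for which no type is given. Tpt1-ps3 was at 1340, 532 and 1140 TPM, Rps12-ps3 at 886, 750 and 920 TPM and Gm10123 at 846, 821 and 843 TPM. Mir6236, Tpt1-ps3 and the entry ENSMUSG00000098178, at 649, 239 and 940 TPM, were all lowest in pool 2. Gm10275 was the steadiest of this group at 672, 678 and 673 TPM, and Rpl27-ps3 was at 586, 480 and 560 TPM.

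Protein starts were set beside abundance, since proteins bound for secretion open with a hydrophobic signal peptide. A start was scored as hydrophobic where some 8 residues within residues 2 to 25 had a mean Kyte-Doolittle value of at least 2.5, in the longest coding sequence of GENCODE M21. Of the 100 most abundant protein-coding nuclear genes 46 had such a start, beside 12.8% of 11395 genes with at least 1 TPM. The share was 12.1% for genes from 1 to under 10 TPM, 11.8% from 10 to under 100, 20.9% from 100 to under 1000 and 45.3% at or above 1000 TPM. Genes with such starts held 46.3% of the TPM of those 11395 genes. Of the 145 listed secreted genes with at least 1 TPM 83.4% scored, and of the 59 among the 100 most abundant that were not on the secreted lists 16.9% did. The median transcript of the 100 most abundant genes was 1516 bases with 7 exons, against 2872 bases and 9 exons for all, a comparison made on a scale that already divides by length.

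Urea cycle genes, which turn ammonia from protein into urea, were all expressed, and 7 of 8 were above 100 TPM. Ass1 was at 2990, 3200 and 2650 TPM, Cps1, the entry enzyme, at 1560, 1740 and 1470 TPM and Arg1, which releases urea, at 1530, 1490 and 1410 TPM. Asl and Otc had means of 551 ± 85.2 and 364 ± 14.5 TPM. Nags, whose product activates Cps1, was the lowest at 27.5, 32.5 and 26.9 TPM. Amino acid breakdown was at a similar height, with 26 of 30 listed genes above 100 TPM: Mat1a, which makes S-adenosylmethionine, at 2220, 2420 and 1780 TPM, Hpd of tyrosine breakdown at 1880, 2120 and 1630 TPM and Tat, the tyrosine aminotransferase, at 1700, 1820 and 1190 TPM. Cdo1, the cysteine dioxygenase of taurine synthesis, was the steadiest of the leading members at 1490, 1490 and 1430 TPM. Gnmt and Bhmt, of methionine balance, were at 1290, 1610 and 1240 TPM and at 1690, 1220 and 1100 TPM.

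Fat oxidation and ketone synthesis, the fuel pathways of a suckling pup, were expressed throughout, with all 26 listed genes above 1 TPM and 20 above 100 TPM. All 26 were highest in pool 2, which was the highest pool for 32.9% of all 13196 genes. Their sum was 5989, 8832 and 6012 TPM. Acaa2, a mitochondrial thiolase, was at 646, 807 and 668 TPM. Cyp4a14 and Cyp4a10, fatty acid hydroxylases and targets of the fat sensor PPARα, were at 361, 1030 and 319 TPM and at 132, 558 and 133 TPM, so that pool 2 stood 2.85-fold and 4.23-fold above pool 1. Cpt1a, which admits long-chain fat to mitochondria, was at 116, 176 and 130 TPM, and Ppara itself at 82.3, 116 and 87.9 TPM. Pools 1 and 3 lay close together for both Cyp4a genes, and pool 2 stood apart.

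Genes of fat synthesis and sugar use had a median of 49.9 TPM over the 17 that reached 1 TPM. Khk, the fructokinase, was at 177, 227 and 194 TPM. Thrsp was at 171, 232 and 164 TPM. Scd1, a desaturase, was at 102, 98.8 and 166 TPM, Acly at 59.8, 54.5 and 80.8 TPM, Fasn at 40.5, 30.7 and 51.2 TPM and Acaca at 21.6, 26.8 and 31.9 TPM, and pool 3 was highest for each. Their regulators Mlxipl and Srebf1 had means of 90.9 ± 16.6 and 49.9 ± 6.60 TPM. Pnpla3, a lipid droplet protein, was under the limit at 0.579 TPM, the only one of 18. Glucose production was led by Pck1 at 2110, 2500 and 1910 TPM, Fbp1 at 656, 715 and 651 TPM and G6pc at 262, 201 and 244 TPM. Glycogen enzymes Ugp2, Pygl and Gys2 had means of 283 ± 50.5, 242 ± 18 and 133 ± 29.9 TPM.

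Cholesterol synthesis varied as a block. All 18 listed genes were highest in pool 3, which was the highest pool for 44.8% of all 13196 genes, and their sum was 1993, 1818 and 2780 TPM. Fdps was at 369, 339 and 496 TPM and Hmgcs1, the first committed enzyme, at 334, 218 and 507 TPM. Sc5d and Idi1, of the later and middle steps, were at 235, 196 and 355 TPM and at 184, 190 and 296 TPM. Pool 3 was also the pool highest in pancreatic transcripts, and their part in these values was not tested.

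Bile acid genes were expressed, all 20 above 1 TPM. The uptake carriers Slco1b2 and Slc10a1 led at 563, 658 and 603 TPM and at 489, 558 and 545 TPM, and the export pump Abcb11 was at 160, 133 and 189 TPM. Cyp7a1, the rate-limiting enzyme of bile acid synthesis, was at 85.9, 48.2 and 107 TPM, and Cyp8b1, which sets the share of cholic acid, at 53.9, 56.0 and 53.4 TPM. Cyp27a1 of the alternative route was at 271, 301 and 255 TPM, and Slc27a5 and Hsd3b7 had means of 439 ± 48.0 and 286 ± 42.3 TPM. Slc51b, a basolateral exporter raised in cholestasis, was at 3.11, 2.23 and 3.76 TPM.

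P450 enzymes of drug oxidation were high, with 17 of 20 above 100 TPM. Of the 19 that reached 1 TPM, 16 were highest in pool 2, the highest pool for 32.9% of all 13196 genes. Among the 972 genes at 100 TPM or more, pool 2 was highest for 42.9%. After Cyp2e1, Cyp3a11 was at 1050, 2790 and 1010 TPM and Cyp2c29 at 799, 1300 and 1150 TPM. Cyp2c70, which makes muricholic acids in mice, was at 1090, 760 and 1090 TPM, lowest in pool 2. Cyp2a12 was at 574, 724 and 610 TPM and Cyp2d26 at 515, 611 and 490 TPM. Cyp2b10, the standard target of the xenobiotic receptor CAR, was low at 4.03, 34.9 and 7.60 TPM, and pool 2 stood 8.66-fold above pool 1. Cyp1a1, the standard target of the aryl hydrocarbon receptor, was under the limit in its mean at 0.945 TPM. Antioxidant genes were led by Ftl1 and Fth1, the ferritin chains, at 2260, 2860 and 2440 TPM and at 1730, 1810 and 1690 TPM. Gpx1, Gsta3, Sod1 and Gstm1 had means of 2000 ± 45.8, 1830 ± 298, 1460 ± 90 and 1215 ± 436 TPM. Nqo1, a target of the oxidant sensor NRF2, was at 7.63, 9.96 and 9.78 TPM.

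Genes of both ends of the lobule were expressed. All 34 pericentral and all 31 periportal genes reached 1 TPM, with medians of 178 and 232 TPM, against 8.42 TPM over all genes. The pericentral list summed to 16689, 23160 and 18072 TPM, and the periportal list without Alb to 19134, 19416 and 17824 TPM, so that the ratio was 0.872, 1.19 and 1.01. The ratio crossed 1 between pools, and neither list can be set above the other. Of the 34 pericentral genes 23 were highest in pool 2, the highest pool for 32.9% of all 13196 genes and 42.9% of the 972 at 100 TPM or more. Cyp2e1 and Cyp3a11 make up much of this list, and without them it summed to 10819, 13260 and 11962 TPM.

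**Figure D3:**
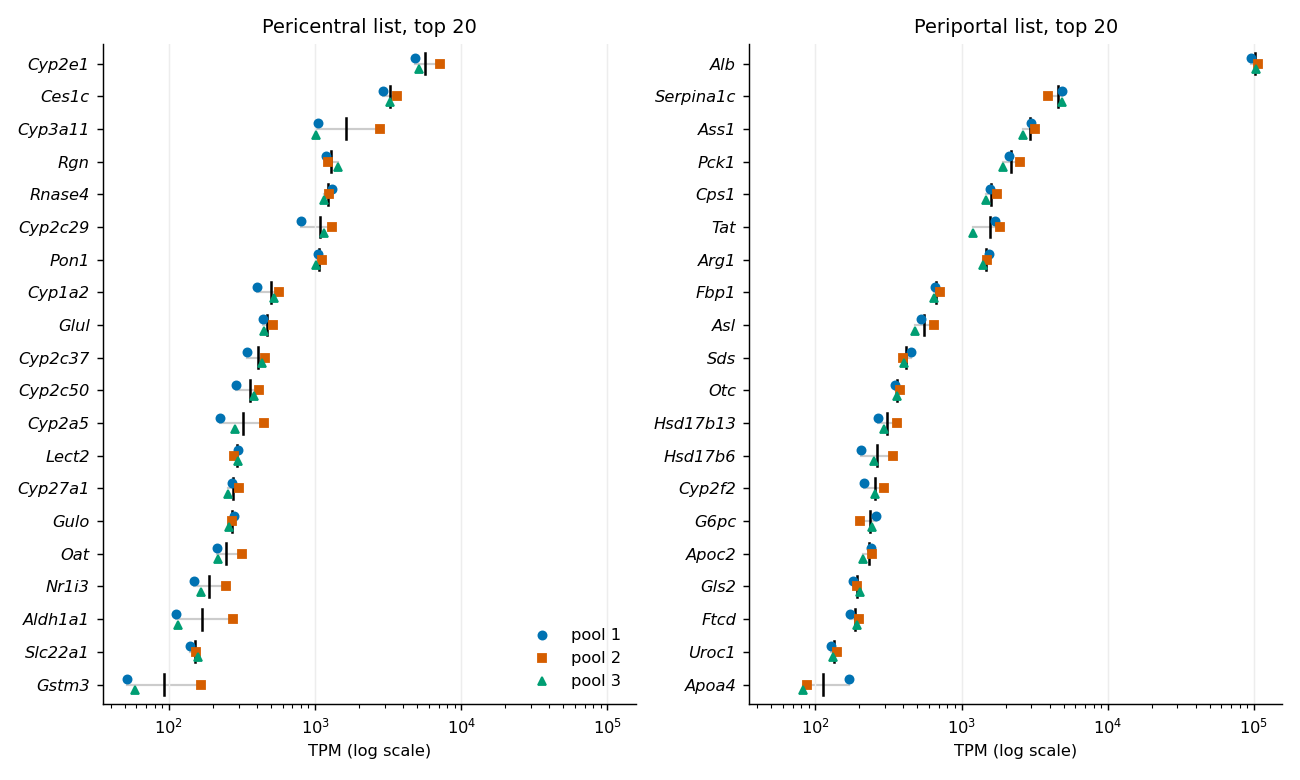
TPM (log scale) of the 20 most abundant genes of the pericentral list (left) and the periportal list (right), with a symbol per vehicle pool and a black bar at the mean; Cyp3a11, Aldh1a1 and Gstm3 are set apart by pool 2, and the periportal genes lie closer together.

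Glul, a marker of the innermost ring of pericentral hepatocytes, was at 440, 517 and 449 TPM. Cyp1a2, which oxidises caffeine, was at 400, 568 and 523 TPM and Ces1c, a carboxylesterase, at 2930, 3610 and 3230 TPM. Rgn (regucalcin) was at 1180, 1220 and 1430 TPM, Rnase4, a secreted ribonuclease, at 1310, 1240 and 1150 TPM and Oat, ornithine aminotransferase, at 212, 315 and 216 TPM. Genes of the WNT signal that sets the central zone were at low levels: Notum 22.8, 29.7 and 25.4 TPM, Tbx3 3.92, 6.95 and 3.95 TPM, Lgr5 a mean of 2.57 ± 0.350 TPM and Axin2 1.84, 2.58 and 1.69 TPM. Gulo, which makes vitamin C in mice, was steady at 279, 272 and 257 TPM. Aldh1a1 and Gstm3, at 112, 275 and 116 TPM and at 51.5, 167 and 58.2 TPM, were high in pool 2. Periportal genes were steadier, with a median CV of 10.6% against 17.3% in the pericentral list. Sds, which breaks down serine, was at 448, 397 and 405 TPM, Cyp2f2, a classical portal P450, at 216, 295 and 257 TPM and Gls2, the liver glutaminase, at 180, 194 and 202 TPM. Cdh1, or E-cadherin, was at 22.9, 15.4 and 25.4 TPM.

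The midlobular list of 5 genes held Igfbp2 at 642, 669 and 501 TPM, Mup3 at 163, 72 and 128 TPM and the hepcidin genes. Hamp, the hormone that blocks iron export from cells, was low at 2.8, 0.698 and 20.5 TPM, with pool 3 29.4-fold above pool 2. Hamp2 was at 17.7, 6.69 and 66.0 TPM. Both were lowest in pool 2 and highest in pool 3. Their mean is carried by pool 3.

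Among cell type markers, all 10 of hepatocytes were high, from Hnf4a at 154 ± 10.8 TPM to Alb. In RNA from whole tissue, fewer cells of a type and less RNA per cell cannot be told apart. All 17 markers of Kupffer cells and macrophages, the resident phagocytes, reached 1 TPM, and they summed to 674.6, 600.6 and 679.7 TPM. Clec4f, which marks Kupffer cells in mice, was at 119, 97.0 and 118 TPM, Cd5l at 67.8, 57.3 and 75.5 TPM and Lyz2 at 56.1, 57.7 and 68.9 TPM. Timd4, a marker of long-lived resident macrophages, was at 7.88, 6.38 and 8.38 TPM. All 18 genes of sinusoidal endothelium, the fenestrated lining of liver capillaries, reached 1 TPM and summed to 398.4, 441.7 and 425.6 TPM. Clec4g was at 65.5, 70.9 and 63.9 TPM, Fcgr2b at 39.8, 52.6 and 50.5 TPM and Stab2, a scavenger receptor, at 31.0, 33.8 and 34.3 TPM. Their median CV was 7.30%.

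Stellate cells store vitamin A and lay down matrix. Of 20 genes of stellate cells and fibroblasts 19 reached 1 TPM, with a sum of 629.9, 580.6 and 619.2 TPM. Dcn was at 198, 180 and 193 TPM, Ecm1 at 134, 137 and 134 TPM and Reln at 36.2, 36.2 and 34.7 TPM. Col1a1, a collagen of scar tissue, was lower at 9.85, 8.21 and 8.38 TPM, and Acta2, which marks activated stellate cells and smooth muscle, was at 7.13, 4.73 and 9.22 TPM. Pdgfrb was almost equal in the pools at 2.69, 2.71 and 2.71 TPM. Timp1 was under the limit at 0.443 TPM. Of 14 markers of bile duct cells 8 reached 1 TPM: Spp1 was at 57.3, 51.4 and 63.3 TPM, Krt19 at 6.33, 2.88 and 11.7 TPM and Epcam at 1.68, 1.27 and 2.07 TPM, while Sox9, Krt7 and Cftr were at means of 0.550, 0.849 and 0.161 TPM. Of the 8, 7 were highest in pool 3, which was the highest pool for 44.8% of all 13196 genes. Pancreatic transcripts were also highest in pool 3, and their part in these values was not tested.

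**Figure D4:**
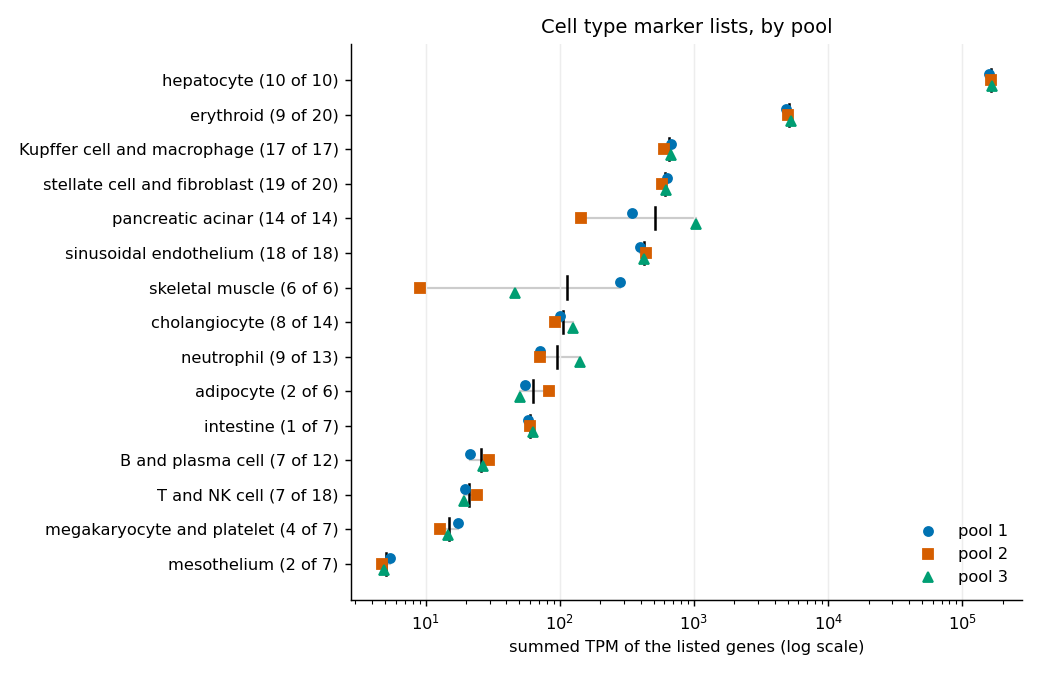
Summed TPM (log scale) of each cell type marker list, with a symbol per vehicle pool and a black bar at the mean; the counts in brackets are genes with a mean of at least 1 TPM of those listed. Most lists lie close together in the 3 pools, and pancreatic acinar, skeletal muscle and neutrophil genes spread apart.

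Lymphocyte transcripts were scarce. Of 18 T and NK cell genes 7 reached 1 TPM, with a sum of 21.0 ± 2.74 TPM, and of 12 B and plasma cell genes 7 did, with a sum of 25.9 ± 4.01 TPM. Tcf7 and Ccl5 led the first list at 3.79 ± 0.597 and 3.28 ± 0.243 TPM, and Ighm and Igkc, immunoglobulin chains, the second at 8.45 ± 1.31 and 6.46 ± 1.53 TPM. Igha, the IgA chain of mucosal plasma cells, was at 0.101, 0.780 and 0.0838 TPM. Of 13 neutrophil genes 9 reached 1 TPM and 8 of these were highest in pool 3, the highest pool for 44.8% of all 13196 genes. S100a9 was at 29.7, 39.2 and 77.7 TPM and S100a8 at 19.5, 15 and 38.5 TPM, while Ly6g was listed at 0 in pools 1 and 2. Megakaryocyte and platelet genes summed to 15 ± 2.27 TPM, with Pf4 at 6.80, 4.29 and 4.87 TPM. Mesothelial genes summed to 5.03 ± 0.390 TPM, with Msln at 1.98, 2.29 and 2.13 TPM.

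Erythroid genes held adult globins and little else. Hbb-bs was at 2430, 2520 and 2580 TPM, Hba-a2 at 1220, 1310 and 1330 TPM, Hba-a1 at 777, 705 and 848 TPM and Hbb-bt at 360, 410 and 452 TPM. The adult globins made up 0.498% of TPM, and α to β globin stood at 0.707 ± 0.0170. Alas2, the haem synthesis enzyme of red cell precursors, was level at 23.8, 23.8 and 23.6 TPM. Klf1 and Gata1, which mark nucleated precursors, were at 0.997 ± 0.354 and 0.173 ± 0.137 TPM, and both were lowest in pool 1. The embryonic globins Hbb-y, Hbb-bh1 and Hba-x were listed at 0 in every pool. Of 9 markers of blood progenitors only Kit, Meis1 and Cd34 reached 1 TPM, at 2.95 ± 0.370, 2.85 ± 0.754 and 2.66 ± 0.0656 TPM, and these 3 are also expressed by cells outside the blood lineage. Myb and Runx1 were at 0.311 ± 0.0193 and 0.196 ± 0.0288 TPM.

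Markers of other tissues were uneven. Pancreatic acinar genes were led by Ctrb1, a chymotrypsinogen, at 52.9, 23.8 and 148 TPM, Cela2a at 48.8, 18.7 and 135 TPM and Cela1 at 43.0, 19.3 and 129 TPM. Pnlip, the pancreatic lipase, was at 23.8, 10.3 and 110 TPM. All 14 genes were highest in pool 3 and lowest in pool 2, against 44.8% and 37.7% of all 13196 genes. Skeletal muscle genes had the opposite leader: Acta1 was at 98.3, 1.87 and 14.2 TPM, Tnnt3 at 74.2, 2.27 and 13.9 TPM and Mylpf at 51.8, 3.13 and 8.74 TPM. All 6 were highest in pool 1 and lowest in pool 2, against 21.0% and 37.7% of all 13196 genes. Without pool 1 the muscle list fell to a mean of 27.8 TPM, and without pool 3 the acinar list to 245.1 TPM. Adipocyte genes were nearly absent, with Adipoq at 0.217 ± 0.0970 TPM, and Pnpla2, a lipase that hepatocytes also express, holding most of that list at 53.5, 81.6 and 48.1 TPM. Of the 7 intestinal genes only Fabp2 passed 1 TPM, at 56.2, 58.9 and 61.2 TPM, while Cdx2 and Alpi were listed at 0 in every pool.

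Genes known from fetal liver were present over a wide range of levels, and no younger or older liver was set beside them. Of 33 oncofetal and imprinted genes 24 reached 1 TPM, or 72.7% beside 25.4% of all genes in the table, and 4 passed 100 TPM in their mean. Afp, which lies 14134 bases beyond Alb on chromosome 5, was at 7.30, 104 and 171 TPM, with pool 1 23.4-fold below pool 3, and Alb exceeded it 13110-fold, 1029-fold and 602-fold in pools 1 to 3. H19, a noncoding RNA from the maternal allele, was at 471, 240 and 458 TPM, and its imprinted neighbour Igf2, a fetal growth factor read from the paternal allele, at 7.63, 45.1 and 27.9 TPM. H19 thus stood 61.7, 5.32 and 16.4 times above Igf2, and the pool with the least Igf2 had the least Afp. Gpc3, a fetal surface proteoglycan, was at 18.7, 18.2 and 14.1 TPM and Igf2bp3, an RNA-binding protein, at 8.59, 9.42 and 9.56 TPM. Slc38a4, an amino acid carrier, led the list at 368, 452 and 386 TPM. Cyp3a16, a P450 of the young mouse liver, was at 161, 68.5 and 98.0 TPM, and Cyp3a11 was above it by 6.52, 40.7 and 10.3 times. Aldoa was at 141, 91.5 and 78.7 TPM and Tff3 at 83.2, 41.3 and 47.4 TPM. Lin28b and Igf2bp1, regulators of fetal programmes, were at 0.0135 and 0.0116 TPM, and Dlk1 and Hmga2 at 0.288 and 0.252 TPM.

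Genes that rise after birth were in part at high levels. Of 32 listed 30 reached 1 TPM and 17 reached 100 TPM, among them Alas1, the haem synthesis enzyme that supplies P450s, at 813, 1110 and 822 TPM, and Tdo2, of tryptophan breakdown, at 1000, 1190 and 934 TPM. Of the 18 genes listed as male-biased in adult liver, 15 reached 1 TPM and 6 reached 100 TPM. Cyp2d9 was at 114, 106 and 88.7 TPM and Nudt7 at 189, 87.6 and 197 TPM. Others on that list were low. Cyp4a12a and Cyp4a12b were at means of 0.0948 and 0.0697 TPM, Elovl3 at 1.62, 1.5 and 2.28 TPM, Slco1a1 at 4.01, 0.826 and 2.37 TPM and Hsd3b5 at 4.31, 0.612 and 5.18 TPM. Mup20, the male urinary pheromone darcin, was at 34.2, 18.3 and 17.5 TPM. The 22 major urinary protein genes, which rank among the most abundant messengers of adult male liver, summed to 435.4, 176.7 and 260.9 TPM, with Mup3 at 121 ± 45.9 and Mup22 at 70.5 ± 52.5 TPM. Mup4, Mup5 and Mup12 were listed at 0 in every pool, and because these genes are near-identical copies their single values are uncertain.

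Genes that differ between the sexes in adult liver were present from both sides. The 18 male-biased genes summed to 1797, 1077 and 1780 TPM, led by Selenbp2 at 424, 236 and 485 TPM and Gstp1 at 361, 421 and 321 TPM. The 21 female-biased genes summed to 2521, 3287 and 2807 TPM, led by Sult2a1, a sulfotransferase, at 1390, 1500 and 1490 TPM. This list also holds the PPARα target Cyp4a10, at 132, 558 and 133 TPM, which made up a large part of the higher sum in pool 2. Cyp2b9 was at 178, 251 and 224 TPM, and Cux2, a female-specific regulator of adult liver, at 7.22, 11.9 and 12.2 TPM. Of the 20 female-biased genes that reached 1 TPM, 9 were highest in pool 2 and 9 in pool 3. Over all 13196 genes these pools were highest for 32.9% and 44.8%. Of the 15 male-biased genes that did, 11 were lowest in pool 2, the lowest pool for 37.7% of all 13196 genes. Eif2s3y was at 29.7, 46.4 and 18.7 TPM, Ddx3y at 24.6, 34.7 and 12.2 TPM, Uty at 6.27, 8.60 and 3.43 TPM and Kdm5d at 5.21, 7.67 and 3.76 TPM.

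Transcription factors were expressed far below the leading plasma protein genes. Of 36 listed, 35 reached 1 TPM. Nr1i3, or CAR, led at 149, 246 and 167 TPM, followed by Hnf4a, the master factor of hepatocytes, at 151, 166 and 145 TPM, and their ranges overlapped. Creb3l3 was at 127, 189 and 129 TPM, Xbp1 of the secretory pathway at 110, 87.0 and 119 TPM, Rxra, the partner of nuclear receptors, at 94.9, 94.3 and 101 TPM. Cebpa was at 56.3, 66.0 and 78.2 TPM. Nr1h3 (LXRα) was among the steadiest genes at 52.4, 52.5 and 52.8 TPM.

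The growth hormone receptor Ghr was at 220, 221 and 261 TPM and Socs2, a feedback inhibitor that growth hormone induces, at 19.6, 15.3 and 47.8 TPM. Of the 8 genes of this axis 7 were highest in pool 3, the highest pool for 44.8% of all 13196 genes. Glucocorticoid-responsive genes were led after Tat by the metallothioneins Mt1 and Mt2, at 1060, 1440 and 739 TPM and at 1000, 1520 and 673 TPM, and 9 of these 14 genes were lowest in pool 3, the lowest pool for 20.5% of all 13196 genes. Clock genes differed as well: Dbp was at 42.0, 62.4 and 47.6 TPM, Ciart at 17.9, 44.8 and 8.81 TPM and Arntl (BMAL1) at 4.57, 1.34 and 1.63 TPM. Of the 16 clock genes that reached 1 TPM, 12 were highest in pool 2, the highest pool for 32.9% of all 13196 genes. The hour at which livers were taken is not given in the sources used here. The 11 early response genes that reached 1 TPM had a median of 7.30 TPM and were led by Zfp36 at 44.4, 34.2 and 36.9 TPM. Egr1 was at 6.59, 26.3 and 7.29 TPM, and Fos was under the limit at 0.893 TPM.

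Cell cycle genes were present at low levels, all 24 above 1 TPM with a median of 6.29 TPM and a sum of 196.2, 209.9 and 259.5 TPM. Pcna was at 46.2, 44.4 and 52.5 TPM, Cdk1 at 15.4, 16.3 and 21.2 TPM and Mki67, expressed in dividing cells, at 4.58, 4.07 and 6.74 TPM. Of the 24 genes 21 were highest in pool 3, the highest pool for 44.8% of all 13196 genes. Interferon-stimulated genes summed to 469 ± 41.6 TPM, led by Bst2 at 152, 149 and 170 TPM and Iigp1 at 152, 132 and 168 TPM. Chaperones of the endoplasmic reticulum, where secreted proteins fold, were led by Calr at 910, 641 and 803 TPM, Hsp90b1 at 662, 494 and 618 TPM and Hspa5 at 623, 387 and 472 TPM. Of the 15 genes of this list 10 were highest in pool 1, the highest pool for 21.0% of all 13196 genes. Ddit3, or CHOP, was at 8.65, 11.1 and 6.53 TPM. Of the heat shock genes, Hspa8 at 590, 583 and 578 TPM and Hsp90ab1 at 442, 445 and 458 TPM were steady. Hsp90aa1, at 128, 93.5 and 134 TPM, and Hspa1b, at 5.64, 5.17 and 8.53 TPM, were less so. The median CV was 13.9% over the 10 heat shock genes that reached 1 TPM, beside 11.6% for all 13196 genes. Among genes used as references, Eef1a1 was at 3190, 3240 and 3330 TPM, B2m at 1660, 1690 and 1680 TPM, Gapdh at 1000, 1070 and 899 TPM, Actb at 250, 175 and 240 TPM and Tbp at 13.7, 14.1 and 13.1 TPM.

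The spread between pools was widest among genes of low abundance. The median CV was 20.4% for 3024 genes from 1 to under 3 TPM, 12.4% from 3 to under 10 TPM and 8.14% from 30 to under 100 TPM, and it was 8.73% for the 104 genes at or above 1000 TPM. Over all 13196 genes it was 11.6%. It was 10.4% for protein-coding genes and 34.1% for the 1730 others. A CV above 50% was found for 905 genes, or 6.86%, which comprised 267 protein-coding genes (2.33% of these) and 638 others (36.9%). Of all genes taken, 419 were listed at 0 in at least 1 pool and 199 in 2 pools.

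**Figure D5:**
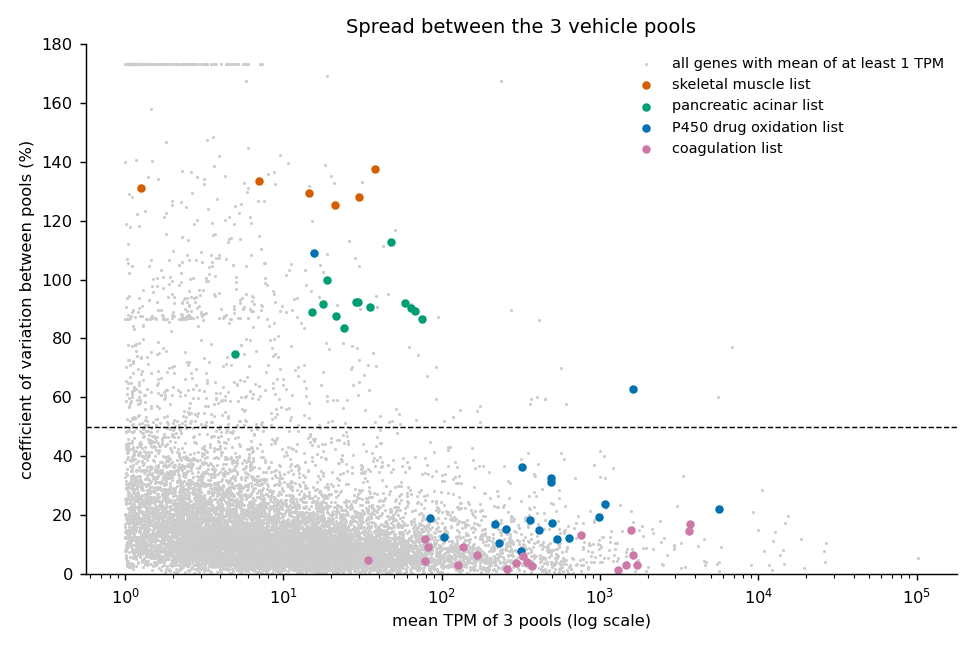
Coefficient of variation between the 3 vehicle pools (%) against mean TPM (log scale), a point per gene with at least 1 TPM; the dashed line marks 50%. Skeletal muscle and pancreatic acinar genes lie above the line, coagulation genes near the bottom, and genes listed in only 1 pool form the row at the top.

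Among protein-coding genes with at least 10 TPM, the 15 with the largest CV fell into few groups. Rps27 had the largest at 3.54, 690 and 12.3 TPM, but its near-copy Rps27rt, whose coding sequence of 252 bases is identical, was at 638, 1.82 and 600 TPM. Their sum was 641.5, 691.8 and 612.3 TPM with a CV of 6.20%, so the sum differed little between pools while the division between the copies swung from pool to pool. Of the 15, 7 were muscle genes, Myl1, Tnnc2, Acta1, Tnni2, Ckm, Tnnt3 and Mylpf, with Tnni2 at 52.6, 0.663 and 9.46 TPM. Acot1, a thioesterase that PPARα induces, was at 8.19, 60.0 and 9.84 TPM, and Cyp2b10 shared its high pool. Pnlip and 2210010C04Rik, at 7.61, 3.60 and 29.9 TPM, were highest in pool 3, as were Dmbt1, a mucosal scavenger protein, at 13.3, 1.72 and 41.5 TPM, and Hamp2. Mup18 was at 37.6, 3.96 and 9.85 TPM. The 10 with the smallest CV were Khsrp, Vamp8, Serpinf2, Rnh1, Puf60, Nr1h3, Ndufb11, Tmbim4, Cebpz and Paxbp1. Khsrp, an RNA-binding protein, was at 10.4 TPM and Vamp8, of vesicle fusion, at 109 TPM in each pool, equal at the 3 significant digits of the table. Ndufb11, a complex I subunit, was at 143, 144 and 144 TPM.

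Of the 38 genes at 10 TPM or more that pool 2 set apart upwards, 23 were protein-coding, beside 5672 of all 5970 genes at that level. A few protein-coding genes not yet described are given here, chosen after their values were seen. Acot3 and Acot4, peroxisomal thioesterases, were at 5.36, 38.6 and 9.26 TPM and at 12.6, 48.5 and 19.9 TPM. G0s2, an inhibitor of fat breakdown, was at 13.2, 61.8 and 16 TPM, Vnn1 at 11.4, 22.8 and 10 TPM and Ces2a, a carboxylesterase, at 119, 280 and 128 TPM. Gsta2 was at 8.30, 35.2 and 12.1 TPM. These genes were picked for being at least 2-fold higher in pool 2 than in both other pools.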

How the data were processed

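RNA of vehicle livers was prepared with the TruSeq RNA kit and sequenced on a NovaSeq 6000. Per the submitters' processing notes the authors used bcl2fastq 2.17.1.14, STAR 2.2.0c on mm10 and HOMER, and reads with a single alignment were retained. In the methods, quantification is described as FPKM over RefSeq exons, whereas the values the authors deposited are TPM under Ensembl identifiers, rounded to 3 significant digits, and how TPM were made is not given in the sources used here. How reads shared by near-identical genes were assigned is not given in the sources used here, and some such genes carry equal values in all pools. TPM depends on the rest of the library. Depth is unknown, so no count model was used. The deposited comparison table holds fold changes and adjusted p-values of TCS against vehicle and was not used. Columns carry the group and a number but do not show which labelled sample each one is, and pool numbers are those of the table.

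Means, SDs and CVs over 3 pools were computed with Python 3.11.15, pandas 2.3.3 and numpy 2.4.6 and tested on simulated data, and no hypothesis was tested. Genes named are the 30 highest by mean, up to 6 leading members of each of 53 lists with cell type markers at 0 in every pool, all sex-chromosome genes listed, the 15 largest and 10 smallest CVs among protein-coding genes of at least 10 TPM, and the 10 leading noncoding genes. Further list members and genes given as low or under the limit were chosen after their values were seen, and not every gene under the rule is named. The members and lists were chosen with earlier results of these data known. Single genes missing from the table, such as Hbb-b1, were not analysed here. Positions are from GENCODE M21 (GRCm38), which holds 99.5% of the identifiers, and promoters from RefSeq (GRCm38.p6). Alternatives comprised other limits on low values, other totals, median-of-ratios scaling, geometric means and leaving out each pool. Taking Alb out of sums, adding mitochondrial pseudogenes, leaving out muscle and acinar genes and summing Rps27 with its copy were chosen after seeing the data. Some genes of the lists are not reported here by name, though they count in the sums.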

Additional observations from a re-analysis of the deposited data

How the results depend on the processing

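With 3 pools of 3 mice, unknown depth and no test, only spread between pools can be stated. With a limit of 5 TPM 8479 genes were taken in place of 13196, and with 0.5 TPM 14926. Restricting the total to protein-coding nuclear genes moved the share of the 10 most abundant genes to 28.5%, of the 100 to 50.5% and of secreted proteins to 39.9%. Leaving mitochondrially encoded genes out moved the share of the 100 most abundant to 50.8% and that of secreted proteins to 36.7%. Leaving Alb out of list and total gave 22.5% for secreted proteins and, for the periportal list, a sum of 18791 TPM in place of 120691. Adding the 4 pseudogenes raised the mitochondrial share to 20.6%. TPM rescaled to protein-coding nuclear genes gave 25321 for the pericentral list, 158374 for the periportal, 1074 for the midlobular, 1808 for the oncofetal and 13.6 for the progenitor list. The median CV was 26.8% over every gene above 0, and 139 genes had a CV above 50% at 10 TPM or more. On the log2 scale the median SD was 0.14 for log2(TPM + 1) and 0.16 for log2(TPM + 0.1).

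Leaving out 1 pool at a time gave 13075 to 13235 genes, 27.7% to 27.9% in the top 10, 57.4% to 58.1% in the top 100, 30.03% to 30.7% in secreted proteins and 16.7% to 17.6% in mitochondrial genes. Sums were 17381 to 20616 TPM for pericentral, 117829 to 123620 for periportal, 787 to 842 for midlobular, 1319 to 1463 for oncofetal and 10.2 to 10.6 for progenitor genes. The median CV was 8.52% to 10.4% and 725 to 893 genes had a CV above 50%. A median CV over fewer pools tends to be lower for that reason alone, so these values cannot be set directly against those over all 3. No paired analysis was possible because a single group of 3 pools was described, with no partner samples and no test.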
